A study of Bos taurus with 3 samples.

Results

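Among the epithelial cells of the cow rumen, 831 of 20728 cells carried transcripts of both *IGFBP5* and *FABP4* with no captured transcript of *GJA1*. They were chosen cell by cell from the UMI counts of these 3 genes, where a UMI (unique molecular identifier) marks 1 captured RNA molecule: at least 2 UMIs of *IGFBP5*, at least 1 of *FABP4* and 0 of *GJA1*. These cells are called members here. *IGFBP5* encodes a secreted protein that binds insulin-like growth factors, *FABP4* a cytosolic carrier of fatty acids, and *GJA1* connexin 43, the protein of a gap-junction channel. The cells were isolated from ventral rumen tissue of 3 adult Holstein cows in milk, with 1 droplet single-cell RNA library (Chromium 3′ v3) per cow and 1 condition, so every comparison is between cell populations of the same cows. The study asked which epithelial cells take up and use volatile fatty acids (VFAs), and it named a group of spinous clusters after their *GJA1*. It named 1 of these clusters after *IGFBP5*, proposed a role for it in VFA uptake, and reported high *FABP4* in all of them. Both genes that the rule requires are thus genes of those clusters. The tissue was freed from muscle and digested with enzymes before capture, and the study removed cells outside the epithelium by their marker genes.

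The rumen wall is a stratified squamous epithelium, in which cells leave the basal layer, pass through spinous and granular layers and end as a cornified sheet. It absorbs the acetate, propionate and butyrate that microbes make from plant fibre. Butyrate is largely turned into ketone bodies inside the epithelium, propionate can enter the citric acid cycle as succinyl-CoA, and the protons that come with the acids leave by exchangers and by co-transport with the acid anions.

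Members were set against 3 other populations of the same cows. Double-negative cells had 0 UMIs of *IGFBP5* and 0 of *GJA1* (7710 cells). *FABP4*-negative counterparts met the *IGFBP5* and *GJA1* limits but held 0 UMIs of *FABP4* (5489 cells). *GJA1*-positive counterparts met the *IGFBP5* and *FABP4* limits with at least 1 UMI of *GJA1* (546 cells). Cow 1 gave 103 members, cow 2 gave 327 and cow 3 gave 401. Members were 3.06% of the cells of cow 1 (exact binomial 95% interval 2.50% to 3.70%), 4.42% of those of cow 2 (3.96% to 4.91%) and 4.03% of those of cow 3 (3.65% to 4.43%), with a mean of 3.83% ± 0.701 (SD, n = 3 cows). The intervals cover counting error only. Of the cells that met both the *IGFBP5* and *FABP4* limits, 32.9% in cow 1, 64.4% in cow 2 and 72.1% in cow 3 had 0 UMIs of *GJA1*, so cow 1 stood below the other cows in this share. A cell with 0 UMIs may hold transcripts that were not captured, and cow 1 had the deepest cells on both sides of the limit, given below; the part of depth in this share was not tested.

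**Figure D1:**
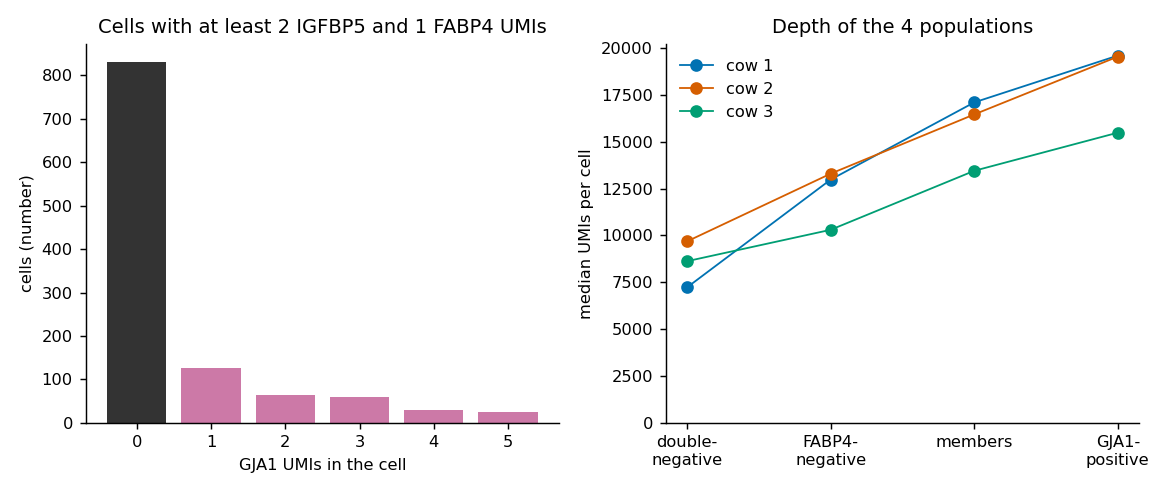
Cells by number of *GJA1* UMIs, from 0 to 5, among those with at least 2 *IGFBP5* UMIs and 1 *FABP4* UMI (left, number of cells), and the median number of UMIs per cell in the 4 populations with 1 line per cow (right). The members are the bar of 831 cells at 0, next to 126 cells with 1 *GJA1* UMI, and in each cow their depth lay above that of double-negative cells and below that of *GJA1*-positive counterparts.

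The rule asks for UMIs, and the members were among the deeper cells. The median depth of members was 17104 UMIs per cell in cow 1, 16462 in cow 2 and 13452 in cow 3, against 7232, 9686 and 8627 in double-negative cells. In *FABP4*-negative counterparts it was 12982.5, 13299 and 10303, and in *GJA1*-positive counterparts 19603.5, 19546 and 15488. The median mitochondrial share of UMIs was also higher in members (21.1%, 12.1% and 13.1% in cows 1 to 3) than in double-negative cells (13.3%, 9.68% and 11.7%), and lower than in *GJA1*-positive counterparts (24.0%, 14.3% and 15.7%). Levels below are therefore UMIs per 10000 UMIs of the summed cells. Each comparison was also fitted on cells of 8000 to 16000 UMIs alone, called the window of like depth here. Depth inside the window was not compared between populations, so some difference in depth may remain there. The summed members held 13044924 of the 237958901 UMIs of the series. The authors looked for doublets before deposit, no further doublet caller was run, and the deepest member had 38187 UMIs. Among all cells, 35 barcode sequences occurred in more than 1 library.

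By their keratins the members were epithelial. *KRT5*, a keratin of the basal layer, stood at 37.7, 44.3 and 71.1 UMIs per 10000 in cows 1, 2 and 3, its partner *KRT14* at 19.1, 27.1 and 50.2, and *KRT19* at 1.65, 2.14 and 4.59. *FABP4* is best known from fat cells and capillary endothelium, so markers of those cells were counted over all members. Of 5 adipocyte markers in the table, *PLIN4* had 0 UMIs, *PLIN1* and *LIPE* were near 0, and *PPARG* made up nearly all of the list's 1180 UMIs. The summed adipocyte list stood at 1.23, 0.675 and 1.02 UMIs per 10000 in members and at 1.11, 0.702 and 1.08 in double-negative cells, and *PPARG* itself did not pass the test between them (log2 fold change 0.13, SE 0.09). *ADIPOQ* and *LEP* were not analysed here. The 8 endothelial markers summed to 48 UMIs, most of them from *VWF*, with *CDH5* at 0; 3 of the 8 were at 0. Their summed level was 0.0271, 0.0378 and 0.0390 in members against 0.0403, 0.0247 and 0.0236 in double-negative cells. Fibroblast markers gave 1 UMI in all members, with 5 of 6 genes at 0. Markers of smooth muscle and pericytes gave 5 UMIs, those of Schwann cells, melanocytes and neuroendocrine cells 8, and the 9 immune markers 42, mostly from *CD52*.

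The 3 genes of the rule are given as a description, since they chose the cells. *IGFBP5* (ENSBTAG00000054218) reached a median of 3 and a highest value of 25 UMIs per member, and 256 members had exactly 2. *FABP4* (ENSBTAG00000037526) had a median of 2 and a highest value of 152, and 397 members held a lone UMI, 118 held 2 and 316 held at least 3. In all, 136 members met both limits with no UMI to spare. *FABP4* was found in 13.0%, 14.3% and 12.4% of the *GJA1*-negative cells with at least 2 *IGFBP5* UMIs in cows 1, 2 and 3. It was found in 4.56%, 6.36% and 8.70% of double-negative cells. After each cell was thinned to 5000 UMIs, 2.87%, 3.89% and 5.60% of double-negative cells still held it, and 57.8%, 56.7% and 60.3% of members. Every member held *FABP4* by the rule before thinning, so the shares of members are not to be set against those of double-negative cells. The share among the deeper *IGFBP5* cells falls with thinning as well, so its unthinned values are not to be set against the thinned ones. The deposited cells are all epithelial, so no cell type that should lack *FABP4* was at hand to measure RNA from outside the cell, and its part in the members with 1 *FABP4* UMI was not tested.

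Just inside and just outside the limits, the steps differed by gene and by limit. Members with exactly 2 *IGFBP5* UMIs had *COX8B* at 11.7, 3.07 and 1.47 UMIs per 10000 in cows 1, 2 and 3, and 406 otherwise matching cells with 1 *IGFBP5* UMI had it at 11.4, 2.87 and 1.50. The same 2 sets of cells had *GFRA2* at 0.0752, 0.241 and 0.0942 and at 0.161, 0.204 and 0.116. By *FABP4*, members with 1 UMI had a mean *FABP5* level of 21.4 ± 7.28 (SD, n = 3 cows) and those with at least 3 UMIs 34.6 ± 9.47. The 126 cells just outside on the side of *GJA1*, with 1 UMI of it, had *COX8B* at 15.5, 6.42 and 3.43, between the members and the 420 cells with more *GJA1* (21.7, 9.12 and 5.54). *GSTA1* took larger steps, from 1.67, 1.12 and 5.19 in members to 3.41, 2.42 and 13.4 in those 126 cells, and from 1.15, 0.549 and 3.78 in members with 1 *FABP4* UMI to 2.08, 1.2 and 7.31 in those with 2.

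Next to the genes of the rule, *COX8B*, *GFRA2* and *CA1* were named as markers of the members. These names were given with earlier results of these data known, so the tests of these genes are not independent evidence. All of them were higher in members than in double-negative cells and *FABP4*-negative counterparts, and *COX8B* and *GFRA2* were lower than in *GJA1*-positive counterparts. *COX8B* (ENSBTAG00000002046) encodes the muscle and brown-fat form of a cytochrome c oxidase subunit. It stood at 11.4, 3.71 and 1.89 UMIs per 10000 in the members of cows 1, 2 and 3, at 2.70, 1.02 and 0.565 in double-negative cells, at 6.57, 2.32 and 0.966 in *FABP4*-negative counterparts and at 20.6, 8.51 and 4.94 in *GJA1*-positive ones. Every cow gave the same order of the 4 populations, but the cows themselves lay so far apart that members of cow 3 were below double-negative cells of cow 1. The log2 fold change of members, fitted within cows, was 2.04 (SE 0.12, edgeR adjusted p = 3.3e-09) against double-negative cells, 0.83 (SE 0.12, edgeR adjusted p = 0.00061) against *FABP4*-negative counterparts and −1.19 (SE 0.12, edgeR adjusted p = 3e-06) against *GJA1*-positive ones.

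*GFRA2* (ENSBTAG00000020665), a receptor for neurturin of the GDNF family, was rare, at 0.141, 0.418 and 0.170 UMIs per 10000 in members and 0.0242, 0.0901 and 0.0439 in double-negative cells. *FABP4*-negative counterparts had 0.0993, 0.249 and 0.109, and *GJA1*-positive ones 0.295, 0.709 and 0.314. Cow 2 was highest in all 4 populations, and members were above double-negative cells in every cow without overlap between the groups. The log2 fold changes were 2.25 (SE 0.14, edgeR adjusted p = 4.3e-09), 0.68 (SE 0.12, edgeR adjusted p = 0.0032) and −0.93 (SE 0.13, edgeR adjusted p = 0.00016) in the same order of populations. Most of its family was too low to be tested, with 2 UMIs of the co-receptor gene *RET* in all members. Of the 2 genes tested, *GFRA2* was the higher one and its ligand gene *NRTN* was lower in members than in double-negative cells (log2 fold change −0.85, SE 0.26, and −1.60 among cells of 8000 to 16000 UMIs).

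*CA1* (ENSBTAG00000032236), a cytosolic carbonic anhydrase that turns carbon dioxide and water into bicarbonate and a proton, differed most between cows. It stood at 1.55, 2.65 and 0.158 UMIs per 10000 in members and at 0.380, 0.706 and 0.0736 in double-negative cells. *FABP4*-negative counterparts had 0.974, 1.40 and 0.0872, and *GJA1*-positive ones 2.06, 3.71 and 0.199. Cow 3 was far below the other cows in each population, so the groups overlapped, while within each cow members were above the double-negative cells. The log2 fold change was 1.89 (SE 0.16, edgeR adjusted p = 2.2e-07) against double-negative cells and 0.84 (SE 0.15, edgeR adjusted p = 0.0033) against *FABP4*-negative counterparts. Against *GJA1*-positive counterparts it was −0.50 (SE 0.16, edgeR adjusted p = 0.051), which missed the threshold, whereas in the window of 8000 to 16000 UMIs it was −0.77 (edgeR adjusted p = 0.028) and was called. In that window *GFRA2* against *FABP4*-negative counterparts kept its size (0.70) but was no longer called (edgeR adjusted p = 0.13).

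Against the 550 double-negative cells that held *FABP4*, the log2 fold changes of members were smaller, 0.78 for *COX8B*, 1.21 for *GFRA2* and 0.68 for *CA1*, and all 3 were called. Shares of cells with a UMI also showed these genes outside the members. With each cell thinned to 5000 UMIs, *COX8B* was found in 89.2%, 60.4% and 42.2% of members in cows 1, 2 and 3, in 39.7%, 21.3% and 14.4% of double-negative cells and in 99%, 94.5% and 76.0% of *GJA1*-positive counterparts. The unthinned shares were 97.1%, 80.1% and 62.3% in members and 42.7%, 30.8% and 20.1% in double-negative cells. Thinning left out 5 of the 831 members and 1005 double-negative cells with fewer UMIs.

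**Figure D2:**
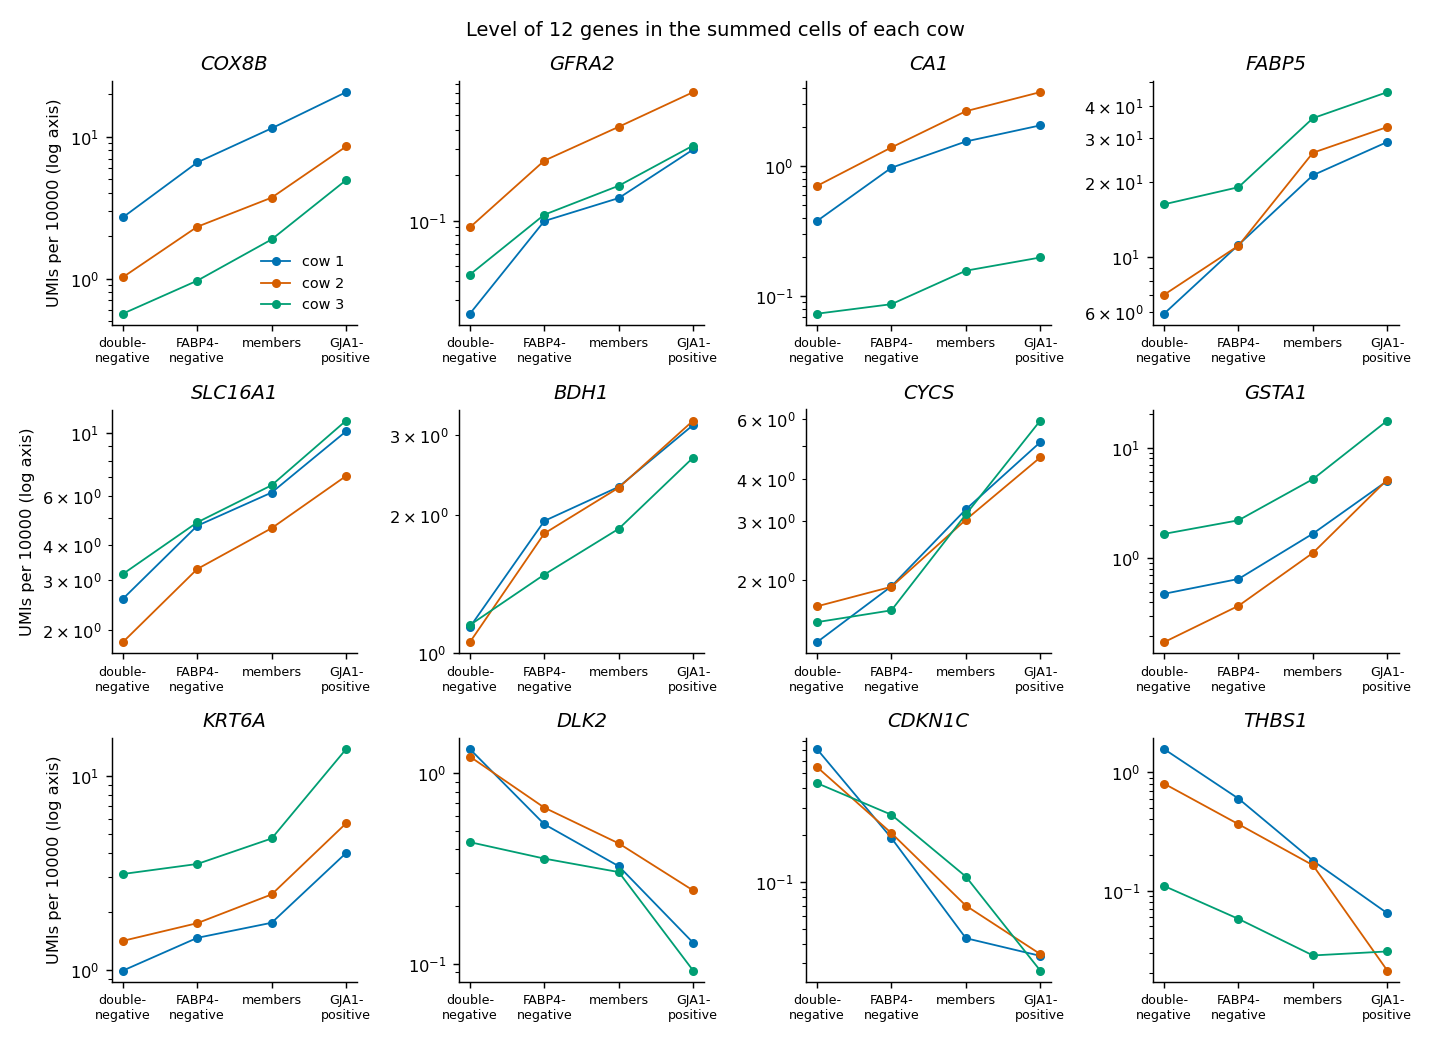
Levels of 12 genes in the summed cells of each cow, in UMIs per 10000 on a log axis, with 1 line per cow and the 4 populations from left to right (double-negative, *FABP4*-negative, members, *GJA1*-positive). For *COX8B*, *GFRA2*, *CA1*, *FABP5*, *SLC16A1*, *BDH1*, *CYCS*, *GSTA1* and *KRT6A* each line climbs from left to right, with members in the third place in each cow; *DLK2*, *CDKN1C* and *THBS1* run downwards from double-negative cells to members.

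Against double-negative cells, the members had higher levels of 13 of 14 tested genes of VFA use, 23 of 24 nuclear respiratory genes, 16 of 18 genes of the citric acid cycle and 7 of 16 genes of VFA transport. They had lower levels of all 6 genes of the list around the granule marker *DLK2* and of 15 of 20 immediate-early and stress genes. Counts summed per cow and population were fitted with edgeR's two-sided quasi-likelihood test with the cow as a block, and a gene was called at a Benjamini-Hochberg adjusted p under 0.05 with a log2 fold change beyond 0.25. Of 10290 genes tested, 1204 (11.7%) were called higher and 1007 (9.79%) lower, so 21.5% were called in either direction, and the median log2 fold change over all genes was −0.02. The change had the called direction in all 3 cows for 1088 of the higher and 1000 of the lower genes. With the cow as a block, the p-values measure how far the differences between populations varied from cow to cow, over 3 cows with 1 library each. The spread of levels between cows is left out of them. Without the block for the cow, 31 genes were called higher and 19 lower. With the block, cells of 8000 to 16000 UMIs gave 518 (5.6%) higher and 367 (3.97%) lower of 9255 genes. Cells of at least 10000 UMIs gave 612 (6.35%) and 458 (4.75%) of 9644. Against double-negative cells with *FABP4*, 150 (1.62%) were higher and 73 (0.79%) lower of 9239. List counts under these settings are to be read beside these shares. Over all cells, leaving out cow 1 gave 865 higher and 573 lower, and leaving out cow 2 gave 686 and 436.

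Apart from the markers above and *FABP5*, the largest increases among genes at 0.1 UMIs per 10000 or more were as follows. *URAD*, which takes part in the breakdown of uric acid, stood at 0.293, 0.261 and 0.161 UMIs per 10000 in members and at 0.0483, 0.0657 and 0.0322 in double-negative cells of cows 1, 2 and 3 (log2 fold change 2.33, SE 0.14). *GSTA1*, a glutathione transferase, stood at 1.67, 1.12 and 5.19 against 0.477, 0.174 and 1.66 (2.12, SE 0.18), with cow 3 the highest in both. The sulfotransferase *SULT1A1* stood at 2.02, 2.12 and 0.926 against 0.689, 0.568 and 0.356 (1.75, SE 0.10). Each of these genes was higher in the members of every cow, and for *URAD* and *SULT1A1* the groups did not overlap. The secretoglobin *SCGB1C1* (1.77), the nucleotidase *ENTPD5* (1.79), the sperm chromatin gene *TNP2* (1.77), the defensin gene *DEFB* (1.74) and *BPIFA2C* of the BPI-fold family (1.73) had log2 fold changes in the same range over all cells. So did 3 genes that the files name by identifier alone. The most abundant of them, ENSBTAG00000036116, reached 101, 121 and 127 UMIs per 10000 in members against 29.4, 37.5 and 57.4 in double-negative cells (1.67, SE 0.11); the others were ENSBTAG00000039643 (1.75) and ENSBTAG00000040393 (1.68). Against the double-negative cells that held *FABP4*, *GSTA1* (0.38, edgeR adjusted p = 0.28), *TNP2* (0.49, 0.39), *BPIFA2C* (0.36, 0.84) and ENSBTAG00000039643 (0.73, 0.052) were no longer called. *URAD* (0.90), *SULT1A1* (0.75), *SCGB1C1* (0.78), *ENTPD5* (0.84), *DEFB* (1.08), ENSBTAG00000040393 (0.65) and ENSBTAG00000036116 (0.55) were still called there with smaller values, and in the window of like depth *BPIFA2C* reached 3.42. *GSTA1*, *SULT1A1*, *DEFB* and *BPIFA2C* belong to families of similar genes, so the split of reads within those families is uncertain.

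Among genes of VFA transport, 7 of 16 tested were higher in members than in double-negative cells and 2 were lower, with a median log2 fold change of 0.37. *SLC16A1*, the monocarboxylate transporter MCT1, stood at 6.16, 4.60 and 6.54 UMIs per 10000 in members and at 2.58, 1.81 and 3.16 in double-negative cells (log2 fold change 1.35, SE 0.08, edgeR adjusted p = 5.4e-09). *BSG*, basigin, which brings MCT1 to the cell surface, stood at 14.7, 17.9 and 19.9 against 5.14, 6.08 and 9.74 (1.49, SE 0.11, edgeR adjusted p = 4.8e-08). For both genes every member sum lay above every double-negative sum. The anion exchanger *SLC4A9* (0.79), the potassium-chloride cotransporter *SLC12A7* (0.70), the monocarboxylate transporter family gene *SLC16A9* (0.43) and the sulfate transporter *SLC26A2* (0.37) were also higher. The sodium-proton exchanger *SLC9A2* was higher by a log2 fold change of 1.81 (SE 0.35) at very low levels, 0.0271, 0.0198 and 0.0177 UMIs per 10000 in members. Lower genes were *SLC16A7*, the transporter MCT2, with −1.76 (SE 0.36), and *SLC16A11* with −0.48 (SE 0.17). In the comparison of cells of 8000 to 16000 UMIs, 4 of 14 tested genes of the list were higher and 0 lower, and *SLC9A2* (1.54), *SLC16A9* (0.37), *SLC26A2* (0.36), *SLC16A7* (−1.20) and *SLC16A11* (−0.58) were no longer called. When set against double-negative cells with *FABP4*, 3 of 16 were higher and 0 lower (median 0.19): *SLC16A1* (0.84) and *BSG* (0.83) were called with smaller values, and *SLC4A9* (0.25, edgeR adjusted p = 0.56), *SLC16A9* (0.16, 0.77), *SLC26A2* (0.21, 0.7), *SLC9A2* (0.17, 0.94), *SLC16A7* (−0.33, 0.87) and *SLC16A11* (−0.29, 0.7) were not called.

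The genes that activate VFAs, carry propionate into the citric acid cycle and make ketone bodies were nearly all higher in members: 13 of 14 tested were called higher and 0 lower, with a median log2 fold change of 0.73. *BDH1*, which interconverts acetoacetate and β-hydroxybutyrate, stood at 2.31, 2.30 and 1.87 UMIs per 10000 in members and at 1.14, 1.05 and 1.15 in double-negative cells, with no overlap (log2 fold change 1.07, SE 0.10, edgeR adjusted p = 3.8e-07). Along the same pathway the thiolases *ACAT1* (0.72) and *ACAT2* (0.51) and the dehydrogenase *BDH2* (0.45) were higher. Of the genes on the route from propionate to succinyl-CoA, the carboxylase subunits *PCCA* (0.93) and *PCCB* (0.80), the epimerase *MCEE* (0.53) and the mutase *MMUT* (0.38) were all higher, as were the acyl-CoA synthetases *ACSS2* (0.74) and *ACSF2* (0.79) and the mitochondrial carboxykinase *PCK2* (0.83). *OXCT1*, which starts the use rather than the synthesis of ketone bodies, did not pass the test (0.26, SE 0.23) and was rare at 0.0271, 0.0126 and 0.0709 UMIs per 10000. The count was 10 higher and 0 lower among cells of 8000 to 16000 UMIs, where *ACAT2* (0.19), *MMUT* (0.31) and *PCK2* (0.58) lost their calls, and 12 or 13 higher when any 1 cow was left out. Against double-negative cells with *FABP4*, 6 were higher and 0 lower, with a median of 0.33 and *BDH1* at 0.59.

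**Figure D3:**
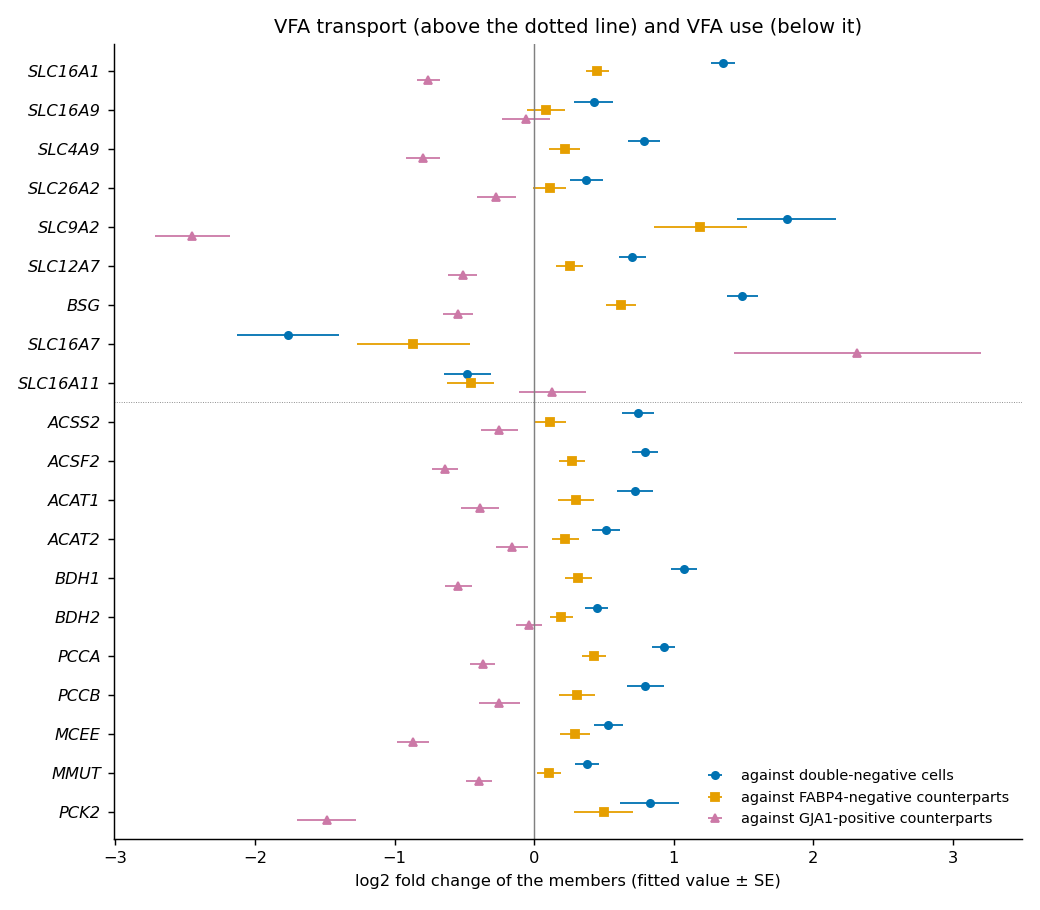
Fitted log2 fold change of members (x axis, point with SE bar) for 9 genes of VFA transport above the dotted line and 11 genes of VFA use below it, against double-negative cells (circles), *FABP4*-negative counterparts (squares) and *GJA1*-positive counterparts (triangles). All 11 plotted genes of VFA use lie to the right of 0 against double-negative cells and to the left of 0 against *GJA1*-positive counterparts, with 6 of these 11 called in the latter comparison.

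Genes of fatty acid handling that PPAR factors are known to act on were mixed: 10 of 26 tested were higher, 2 were lower and the median log2 fold change was 0.26. *FABP5*, the epidermal relative of *FABP4*, stood at 21.2, 26.1 and 35.9 UMIs per 10000 in members and at 5.91, 7.04 and 16.2 in double-negative cells, so every member sum was above every double-negative sum (1.74, SE 0.14, edgeR adjusted p = 9.7e-08). Among enzymes of fatty acid oxidation, *ACADS*, the short-chain acyl-CoA dehydrogenase, had the largest increase, with 8.55, 9.30 and 10.8 against 4.05, 4.64 and 6.93 (1.04, SE 0.10). The thiolase *ACAA2* (0.66), *HADH* (0.57), *ACADVL* (0.51), *ETFA* (0.47), *ETFDH* (0.45), *CPT2* (0.36) and *SLC25A20* (0.61) were higher too, and so was *PPARD* (0.57), a nuclear receptor for fatty acids. The lower genes were *PDK4*, the kinase that shuts pyruvate dehydrogenase, with −1.59 (SE 0.10), and the lipase inhibitor *ANGPTL4*, with −1.01 (SE 0.18). In the window of like depth *SLC25A20* (0.30), *PPARD* (0.32), *CPT2* (0.39) and *ANGPTL4* (−0.65) were not called. Double-negative cells with *FABP4* gave 4 of 24 higher and 1 lower (median 0.17), with *FABP5* at 0.45 and *PDK4* at −0.63.

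Nuclear genes for respiratory subunits were called higher in 23 of 24 cases, with a median log2 fold change of 0.69. *CYCS*, cytochrome c, stood at 3.25, 3.02 and 3.14 UMIs per 10000 in members and at 1.31, 1.68 and 1.50 in double-negative cells (1.19, SE 0.12, edgeR adjusted p = 1.8e-06) with no overlap between the groups. *COX7A2* had a log2 fold change of 1.01 and *COX6A1* of 0.87. The exception was *COX7A1*, the heart and muscle form of its subunit, which was lower in members, at 0.325, 0.101 and 0.313 against 0.686, 0.172 and 0.442 (−0.60, SE 0.11, edgeR adjusted p = 0.00058). *COX8B* and *COX7A1*, both tissue-restricted forms of their subunits, thus differed in direction. In the citric acid cycle 16 of 18 genes were higher and 0 lower (median 0.44), among them *OGDH* (0.73), *IDH3B* (0.63), citrate synthase *CS* (0.62) and *SDHA* (0.57). The count was 9 among cells of 8000 to 16000 UMIs (median 0.34) and 2 against double-negative cells with *FABP4* (median 0.16), where *IDH3B* (0.24), *CS* (0.24) and *SDHA* (0.15) were not called. Of the 13 subunits that mitochondrial DNA encodes, 6 were higher and 0 lower (median 0.26), led by *COX1* (0.67) and *CYTB* (0.59), and 2 were higher against double-negative cells with *FABP4* (median 0.15). The median mitochondrial share per cell, given above, was likewise higher in the members of each cow. Among cells of 8000 to 16000 UMIs, 22 of the 24 nuclear respiratory genes were still higher and 1 was lower, with a median of 0.52, and against double-negative cells with *FABP4* 7 were higher and 0 lower, with a median of 0.21 and with *CYCS* not called (0.25, edgeR adjusted p = 0.18).

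Beyond *CA1*, the membrane-bound *CA12* was the other carbonic anhydrase called, with 0.83 (SE 0.10); 2 of 6 tested were higher and 0 lower, and the median was 0.02. Of 9 genes other than *IGFBP5* in the insulin-like growth factor axis, 0 were higher and 1, *IGFBP7*, was lower (−0.89, SE 0.22), with a median of −0.19. Among sodium pump, potassium, urea and water transport genes, 5 of 9 were higher and 3 lower, with a median of 0.32. The urea transporter *SLC14A1* stood at 0.949, 0.677 and 0.932 UMIs per 10000 in members against 0.275, 0.213 and 0.410 (1.62, SE 0.12), without overlap, and the water channel *AQP5* at 0.699, 0.511 and 0.294 against 0.199, 0.115 and 0.186 (1.64, SE 0.19). The lower genes were the sodium pump subunit *ATP1B1* (−0.90), *KCNN4* (−1.56) and *SLC12A2* (−2.34). In the window of like depth *IGFBP7* (−0.28, edgeR adjusted p = 0.67), *KCNN4* (−0.97, 0.28) and *ATP1B1* (−0.55, 0.32) were not called, and *SLC12A2* was not tested. *SLC14A1* was at 0.61 and still called against double-negative cells with *FABP4*.

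The granule marker *DLK2* and the genes listed near it ran the other way. *DLK2* alone was taken from the study as a granule cell marker, so the list does not stand for the granular layer as a whole. All 6 genes of the list, the study's granule marker *DLK2* with the leading genes near it, were lower, with a median log2 fold change of −1.50; they were picked on these libraries, so their direction is not independent evidence. *CDKN1C*, an inhibitor of the cell cycle, stood at 0.0434, 0.0702 and 0.108 UMIs per 10000 in members and at 0.715, 0.548 and 0.431 in double-negative cells (−2.61, SE 0.21, edgeR adjusted p = 1.6e-07). *DLK2* stood at 0.325, 0.429 and 0.303 against 1.34, 1.22 and 0.435 (−1.20, SE 0.17), with the smallest gap in cow 3. *AOX1* (−2.23), *SOSTDC1* (−1.41) and the chemokine *CCL20* (−1.22) were lower as well. In the window of 8000 to 16000 UMIs, 5 of the 6 were lower, with a median of −1.16, and *AOX1* was not called (−1.19, edgeR adjusted p = 0.25) while *CDKN1C* was at −1.55. Against double-negative cells with *FABP4* *CDKN1C* was at −0.92, and *AOX1* (−0.32), *SOSTDC1* (−0.81) and *DLK2* (−0.41) were not called.

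Large decreases were also found outside that list. *THBS1*, thrombospondin, stood at 0.179, 0.164 and 0.0283 UMIs per 10000 in members and at 1.57, 0.801 and 0.110 in double-negative cells (−2.35, SE 0.18). The matricellular protein gene *CCN2* (−2.60, SE 0.37) and the growth factor gene *PDGFC* (−2.36, SE 0.31) were lower too, as were the peroxidase *PXDN* (−2.30), the potassium channel subunit *KCNAB1* (−2.37), the transcription factor *CREB3L1* (−2.09) and ENSBTAG00000049855 (−2.15). Against double-negative cells with *FABP4* the last 4 of these and *PDGFC* were not called, with log2 fold changes from −1.43 to −0.88, and *THBS1* was at −1.27. Among cells of like depth *CCN2* (−1.57), *KCNAB1* (−1.76), *PXDN* (−1.66) and *CREB3L1* (−1.28) were called with smaller values. The acute-phase gene *SAA3* was listed at 0 in the members of cows 1 and 3 and at 0.0252 in cow 2, against 0.403, 0.416 and 0.00982 in double-negative cells. Of 20 immediate-early and stress genes 15 were lower and 2 higher (median −0.67). *EGR1* stood at 1.46, 5.73 and 0.319 against 6.50, 9.46 and 0.830 (−1.23, SE 0.16), with cow 3 lowest in both populations, and *JUNB* (−1.23), *FOS* (−1.21) and *ZFP36* (−1.15) were lower as well. The higher genes were the chaperones *HSPB1* and *HSPA8*. Among cells of 8000 to 16000 UMIs, 11 of the list were lower and 0 higher, and *HSPB1* (0.25) and *HSPA8* (0.24) were not called; with *FABP4* in the double-negative cells 3 of 19 were lower (median −0.18), *EGR1* at −0.44 and *FOS* at −0.47.

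Genes of both the basal and the spinous layer were among those called. Of 17 basal genes 6 were higher and 3 lower than in double-negative cells (median 0.07): the keratin *KRT15* stood at 57.4, 65.4 and 63.0 UMIs per 10000 against 40.2, 45.5 and 46.2 (0.63, SE 0.07), and *POSTN* (1.39) and *ASS1* (0.68) were higher, while the integrin *ITGA3* was lower (−0.42). Of 11 spinous and late differentiation genes 5 were higher and 0 lower (median 0.54). The epithelial transcription factor *ZNF750* had 1.65 (SE 0.24), the calcium-binding *S100A8* 1.36 (SE 0.16), *S100A12* 0.98 (SE 0.11), *KRT6A* 0.87 (SE 0.10) and the spinous keratin *KRT10* 0.38 (SE 0.10). *POSTN* (0.84), *ASS1* (0.46), *ITGA3* (−0.20) and *KRT10* (0.21) were no longer called among cells of 8000 to 16000 UMIs. Against double-negative cells with *FABP4*, 0 of the 11 spinous genes were called in either direction, with *KRT6A* at 0.02 and *S100A8* at 0.02. Of 20 tested genes that led the study's *GJA1*-positive clusters, 15 were higher and 0 lower (median 0.81), a list taken from these libraries and so not independent, and 6 of 19 were higher against double-negative cells with *FABP4* (median 0.22).

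**Figure D4:**
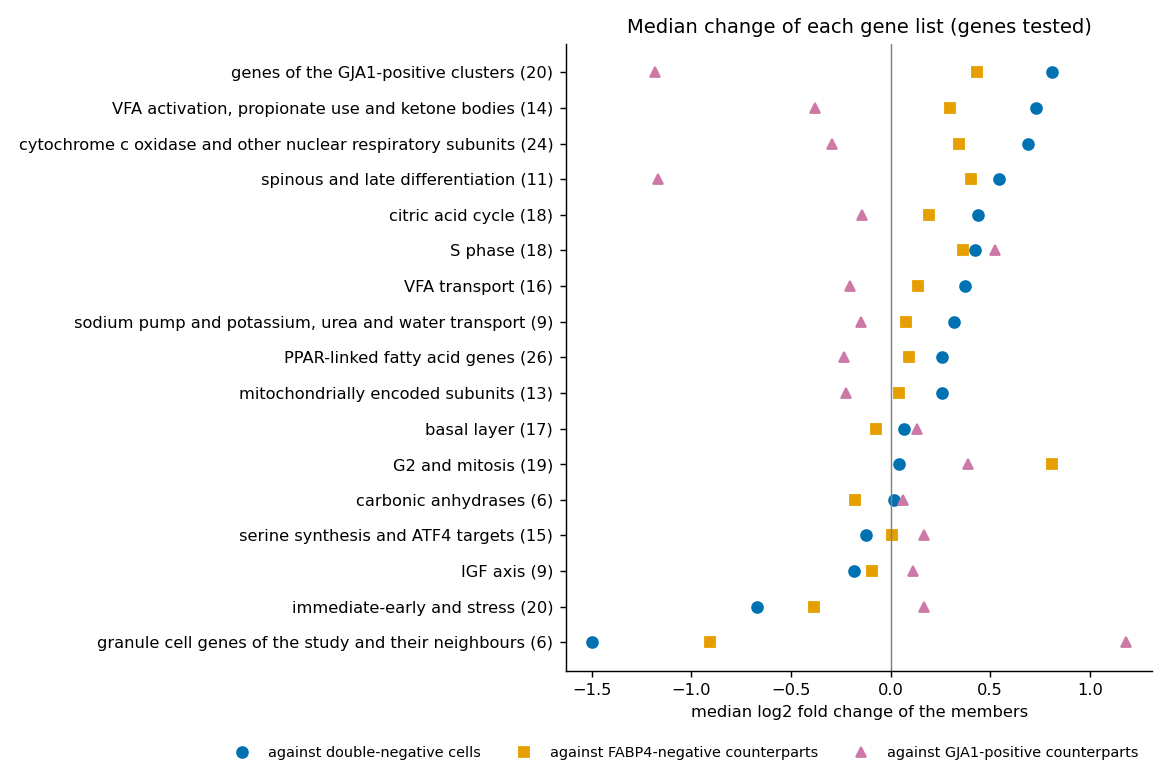
Median log2 fold change of members for 17 gene lists (number of genes tested in brackets) against double-negative cells (circles), *FABP4*-negative counterparts (squares) and *GJA1*-positive counterparts (triangles). The 5 lists with the largest medians against double-negative cells had medians below 0 against *GJA1*-positive counterparts, and the granule cell list had the lowest median in the former (−1.50) and the highest in the latter (1.18).

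The *GJA1*-positive counterparts were, within each cow, the nearest to members in median depth and met the same *IGFBP5* and *FABP4* limits. Members had lower levels of 9 of 11 tested spinous genes, 18 of 24 nuclear respiratory genes and 8 of 14 genes of VFA use, and higher levels of *PTGES*, *PTHLH*, *PHGDH* and *PSAT1*. Of 10290 genes 473 (4.6%) were called higher in members and 622 (6.04%) lower, 10.6% in all, with a median of 0.02 over all genes; 458 and 611 had the called direction in all 3 cows. The 3 comparisons share the members' sums, so their values stand side by side and are not separate evidence. Without the block for the cow, 8 genes were called higher and 11 lower. Leaving out cow 1 gave 206 and 413, and leaving out cow 3 gave 307 and 377. Leaving out cow 2 gave 149 (1.43%) and 256 (2.45%). Among cells of 8000 to 16000 UMIs, 148 (1.6%) were higher and 221 (2.39%) lower of 9255 genes.

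Of 11 spinous and late differentiation genes 9 were lower in members than in *GJA1*-positive counterparts and 0 higher (median −1.17). *KRT6A* stood at 1.75, 2.45 and 4.77 UMIs per 10000 in members and at 4.01, 5.71 and 13.8 in *GJA1*-positive counterparts (−1.38, SE 0.10, edgeR adjusted p = 1.1e-07), the members being lower in each cow. The transglutaminase *TGM3*, which cross-links the cornified envelope, stood at 0.0163, 0.0180 and 0.0248 against 0.10, 0.142 and 0.149 (−2.76, SE 0.25), without overlap. *S100A8* (−1.36), *ZNF750* (−1.36), *S100A12* (−0.89) and *KRT10* (−0.66) were lower, and in the window of like depth *KRT10* was not called (−0.67, edgeR adjusted p = 0.092).

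The connexin gene *GJB2*, which is on the list of genes that led the study's *GJA1*-positive clusters and so is not independent evidence, stood at 0, 0.00360 and 0.0124 UMIs per 10000 in members of cows 1, 2 and 3 and at 0.181, 0.0738 and 0.705 in *GJA1*-positive counterparts. Double-negative cells had 0.0131, 0.00423 and 0.00828. With 9 UMIs in all members and 53 in all double-negative cells, against 288 in the *GJA1*-positive counterparts that took it past the filter, a difference between the 2 low populations was not detectable at this depth. *BPIFA2C* stood at 0.764, 0.0864 and 0.232 in members and at 6.42, 3.15 and 3.63 in *GJA1*-positive counterparts (−4.05, SE 0.27). Both genes were lower in the members of all 3 cows with no overlap between the groups. *PHGR1* (−4.05), the keratinocyte-secreted *SLURP1* (−4.10), the retinol carrier *RBP2* (−2.97) and ENSBTAG00000048835 (−2.84) followed. *ISG15*, an interferon-induced protein, was called lower (−3.90, SE 1.01), with *GJA1*-positive counterparts at 0.0167, 0.0184 and 0.364, so the value of cow 3 carried most of the difference. The window of like depth left *PHGR1* not called (−2.31, edgeR adjusted p = 0.13), *BPIFA2C* at −2.89, and *GJB2*, *ISG15* and ENSBTAG00000048835 not tested. *GSTA1* (−1.94, SE 0.18), *SULT1A1* (−1.60) and *URAD* (−1.33) were lower. Of 20 genes that led the *GJA1*-positive clusters, 18 were lower and 0 higher (median −1.18). The list was taken from these libraries, so this direction is not independent.

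For VFA use, 8 of 14 genes were lower in members than in *GJA1*-positive counterparts and 0 higher (median −0.38). *BDH1*, at 3.15, 3.23 and 2.68 UMIs per 10000 in those counterparts, gave −0.54 (SE 0.10), *MCEE* −0.87 and *PCK2* −1.49. Of VFA transport genes 6 of 16 were lower and 0 higher (median −0.21), with *SLC16A1* at −0.76 (SE 0.08), *BSG* at −0.55, *SLC4A9* at −0.79 and *SLC9A2* at −2.45. Nuclear respiratory genes were lower in 18 of 24 cases and higher in 1 (median −0.30), *CYCS* with −0.80 and *COX7A1*, the higher one, with 0.65. Leaving out cow 2 left 5 lower, and in the window of like depth 8 were lower and *COX7A1* was not called (0.73, edgeR adjusted p = 0.13). Of the 26 PPAR-linked genes 9 were lower and 1, *PDK4* (1.11), was higher, with a median of −0.24. *FABP5* was lower by a smaller amount, −0.43 (SE 0.13, edgeR adjusted p = 0.042). Of the citric acid cycle 3 of 18 were lower, of the mitochondrially encoded genes 4 of 13 were lower and 1 was higher, of the transport list with the sodium pump 3 of 9 were lower, and of carbonic anhydrases 1 of 6, *CA12* (−0.63), was lower. In the window *CA12* was not called (−0.40), 0 mitochondrially encoded genes were lower and 1 higher, VFA use had 5 lower genes and VFA transport 5 of 14.

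Among genes at 0.1 UMIs per 10000 or more in members, 8 had the largest increases. *PTGES*, prostaglandin E synthase, stood at 0.103, 0.0918 and 0.115 UMIs per 10000 in members and at 0.0143, 0.0237 and 0.00766 in *GJA1*-positive counterparts (2.66, SE 0.29, edgeR adjusted p = 1.2e-05), with no overlap. The parathyroid hormone-related gene *PTHLH* stood at 0.0542, 0.112 and 0.145 against 0.00715, 0.0343 and 0.0192 (2.44, SE 0.35), also without overlap. The secreted protein gene *CCDC3* (2.01), the chemokine *CXCL3* (1.85), the interferon regulatory factor *IRF1* (1.67), *GLIPR1* (1.65), the actin-binding *SVIL* (1.63) and *CDC42EP3* (1.54) were higher, and each of them was lower in members than in double-negative cells. When *FABP4* was present in the double-negative cells, *CCDC3* and *CXCL3* were still lower, and *IRF1* (−0.26), *GLIPR1* (−0.17), *SVIL* (−0.49) and *CDC42EP3* (−0.59) were not called. Of the granule genes 2 of 6, *DLK2* (1.25) and *PDK4*, were higher. *PHGDH*, the enzyme that starts serine synthesis, stood at 1.50, 1.36 and 3.00 in members and at 0.667, 0.746 and 1.47 in *GJA1*-positive counterparts (0.96, SE 0.08, edgeR adjusted p = 1.1e-06), next to 1.50, 1.27 and 3.1 in double-negative cells, from which the members did not differ by the test (0.15, SE 0.08). *PSAT1*, the next enzyme, was higher by 0.79 (SE 0.12); in its list of serine synthesis and ATF4 targets 4 of 15 were higher and 1 lower (median 0.17), against 2 higher and 3 lower in the comparison with double-negative cells (median −0.12). *IGFBP6* was higher (0.73, SE 0.15) and *IGFBP3* lower (−1.63, SE 0.29). Among 17 basal genes 3 were higher and 1 lower (median 0.13), and among 20 immediate-early genes 2 were higher and 1 lower (median 0.17). In the window of 8000 to 16000 UMIs 6 of 19 immediate-early genes were higher and 0 lower (median 0.51), with *EGR1* at 1.15, *JUNB* at 1.14, *FOS* at 0.71 and *ZFP36* at 1.27, each called there and not over all cells. *PSAT1* (0.68, edgeR adjusted p = 0.067), *IGFBP6* (0.67, 0.074) and *IRF1* (1.79, 0.053) were not called in the window, while *PHGDH* (0.94) and *IGFBP3* (−2.81) were.

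Among *GJA1*-negative cells with *IGFBP5*, those with *FABP4* had more *FABP5*, *GSTA1*, *S100A8* and nuclear respiratory transcripts than those without. They had less *PDK4*, *THBS1* and *CDH11*. Of 10290 genes 421 (4.09%) were called higher in members and 288 (2.8%) lower, 6.89% in all, and the median over all genes was −0.01; 416 and 283 had the called direction in all 3 cows. The call counts rest on cow 2 more than on the others. Leaving it out left 28 (0.268%) higher and 32 (0.306%) lower, while leaving out cow 1 gave 261 and 180 and cow 3 gave 263 and 174. Of the 62 genes named by rule and called in this comparison, 18 were still called without cow 2, among them *FABP5*, *GSTA1*, *S100A8*, *COX8B*, *CYCS*, *PDK4*, *THBS1* and *CDH11*. Without that cow 0 genes of the lists of VFA transport, VFA use, the citric acid cycle, S phase and of G2 and mitosis were called. Of the spinous genes 3 of 10 were higher, and of the granule genes 1 of 6, *PDK4*, was lower, with *CDKN1C* not called. Without the block for the cow 0 genes were called by edgeR in either direction, with 148 higher and 192 lower at an unadjusted p under 0.05, and DESeq2 with the block called 365 and 187. Cells of 8000 to 16000 UMIs gave 41 (0.443%) higher and 20 (0.216%) lower of 9255 genes.

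*FABP5* stood at 11.2, 11.1 and 19.0 UMIs per 10000 in *FABP4*-negative counterparts, below each member sum (1.04, SE 0.13, edgeR adjusted p = 0.00031). *GSTA1* stood at 0.650, 0.372 and 2.20, below the members of the same cow (1.40, SE 0.18), and *S100A8* at 2.59, 1.13 and 2.51 against 5.24, 2.55 and 5.82 in members (1.15, SE 0.16). These 3 genes were also called among cells of 8000 to 16000 UMIs. ENSBTAG00000039643 (1.16), *TNP2* (1.14) and *BPIFA2C* (1.13) followed, of which *BPIFA2C* alone was called in the window. Nuclear respiratory genes were higher in 18 of 24 cases and lower in 0 (median 0.34), with *CYCS* at 0.79 and *COX7A2* at 0.57; without cow 2 the count was 2, and among cells of 8000 to 16000 UMIs it was 4. Of VFA transport genes 3 of 16 were higher, *SLC16A1* (0.45, SE 0.08), *BSG* (0.62, SE 0.11) and *SLC9A2* (1.19, SE 0.33), and 0 lower (median 0.14), with *SLC9A2* not called in the window.

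Of VFA use genes 1 of 14, *PCCA* (0.43, SE 0.08), was called, and the median was 0.30; *MCEE* gave 0.29 (SE 0.11, edgeR adjusted p = 0.11). The citric acid cycle gave 6 of 18 higher and 0 lower (median 0.19), the PPAR-linked genes 2 higher, *FABP5* and *ACADS* (0.38), and 1 lower, *PDK4* (−1.11), with a median of 0.09, and the mitochondrially encoded genes 0 in either direction (median 0.04). Spinous genes were higher in 4 of 11 cases (median 0.41), while 0 of 17 basal genes, 0 of 9 insulin-like growth factor genes and 0 of 15 serine and ATF4 genes were called. *CA1* was the carbonic anhydrase called of 6, and *SLC14A1* (0.66) the gene called of 9 in the sodium pump and urea list. Of the genes that led the *GJA1*-positive clusters, again chosen on these libraries, 7 of 20 were higher (median 0.43). In the window *PCCA* (0.33), *ACADS* (0.38) and *SLC14A1* (0.62) were not called, nor was any gene of the citric acid cycle list, and 2 of 10 spinous genes were higher.

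Lower in members than in *FABP4*-negative counterparts were *CDKN1C* (−1.45, SE 0.23), the cadherin *CDH11* (−1.41, SE 0.21), the glutamate receptor subunit *GRIA3* (−1.40), *THBS1* (−1.31), *CREB3L1* (−1.58), *PDK4*, *CCN1* (−1.08) and the small GTPase *RND1* (−1.05). *CDH11* stood at 0.0813, 0.0792 and 0.0974 UMIs per 10000 in members and at 0.283, 0.209 and 0.250 in *FABP4*-negative counterparts, with no overlap. In the window of like depth *CDKN1C* (−0.91, edgeR adjusted p = 0.24), *CREB3L1* (−1.02, 0.29), *GRIA3* (−0.98, 0.07) and *CCN1* (−0.99, 0.078) were not called. *PDK4* stood at 0.575, 1.57 and 0.120 against 1.33, 3.1 and 0.322, lower in each cow, with cow 3 far below the others in both. Of the 6 granule genes 3 were lower (median −0.91), 1 of them in the window, and of 20 immediate-early genes 7 were lower and 1 higher (median −0.39), against 0 in either direction of 19 in the window (median −0.27).

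Genes of the cell cycle depended on the depth of the cells compared. Over all cells, 13 of 19 genes of G2 and mitosis were higher in members than in *FABP4*-negative counterparts and 0 lower, with a median of 0.81. Topoisomerase *TOP2A* stood at 1.2, 0.293 and 1.12 UMIs per 10000 in members against 0.421, 0.0932 and 0.803 (1.11, SE 0.20), *CDC20*, an activator of the anaphase-promoting complex, gave 1.16 (SE 0.20) and *MXD3* 1.24 (SE 0.26). Among cells of 8000 to 16000 UMIs, however, 0 of these genes were called and the median was −0.37. Against double-negative cells 0 of 19 were called over all cells (median 0.04), 8 were lower among cells of at least 10000 UMIs (median −0.59), and 15 were lower among cells of 8000 to 16000 UMIs (median −1.51).

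Of 18 S-phase genes 7 were higher than in double-negative cells over all cells, among them *RRM2* (0.99, SE 0.23), *CDC6* (0.74), *MCM3* (0.63) and *MCM6* (0.62), with a median of 0.42, and 0 were lower; among cells of 8000 to 16000 UMIs 5 of 16 were lower and 0 higher (median −0.48). Against *FABP4*-negative counterparts 7 of 18 were higher over all cells (median 0.36) and 0 in the window (median −0.16). Against *GJA1*-positive counterparts 6 S-phase genes were higher (median 0.53), with *RRM2* at 1.19, and 1 gene of G2 and mitosis, *HMGB2* (0.73). In the window 0 genes of either list were called in that comparison, with medians of 0.23 and −0.14, *RRM2* at 0.05 and *HMGB2* at 0.23. The window held 39, 129 and 255 members of cows 1, 2 and 3.

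**Figure D5:**
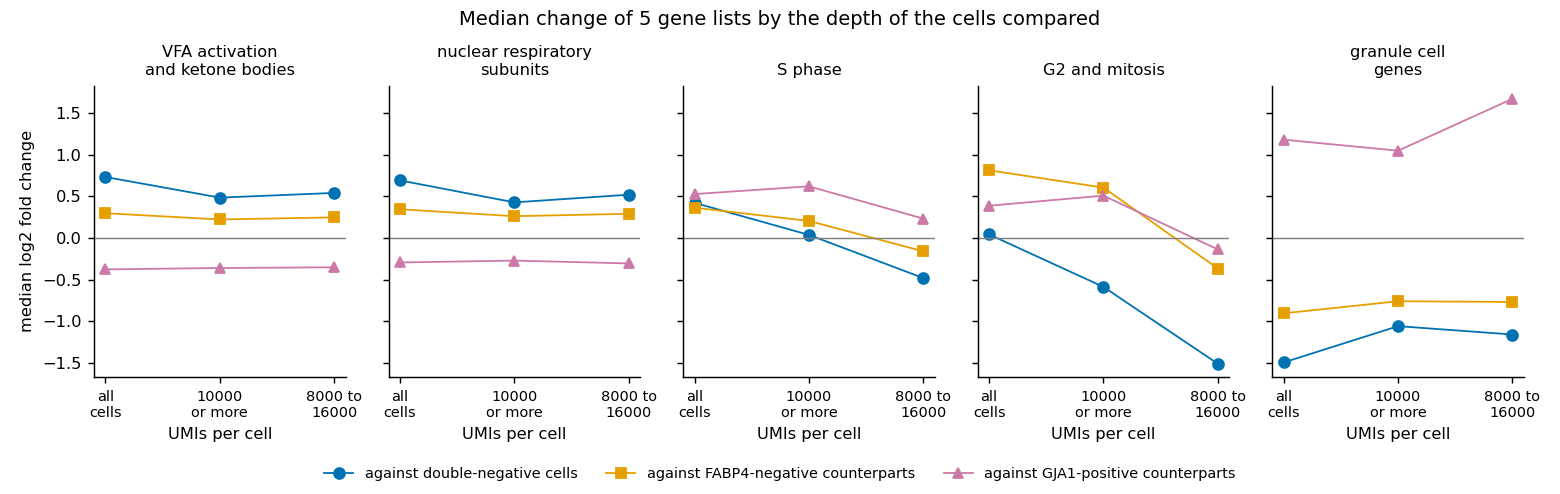
Median log2 fold change of members (y axis) for 5 gene lists, computed over all cells, over cells of at least 10000 UMIs and over cells of 8000 to 16000 UMIs (x axis), against each of the 3 other populations. The lines of VFA use, nuclear respiratory subunits and granule cell genes keep their side of 0 throughout, whereas the lines of G2 and mitosis fall below 0 in the narrow window in all 3 comparisons, from 0.04 to −1.51 against double-negative cells.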

How the data were processed

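For each of the 3 cows, 1 library was read as UMI counts per gene and cell. This deposited table of counts comes from Cell Ranger 3.1.0 (ARS-UCD1.2) and the authors' filters on cells. Gene names came from the table of natural log values that the authors deposited for the same cells, ln(1 + UMIs per 10000), which matched the counts within 1e-06. The number after each barcode was matched to the number in the sample titles to give the cow, and the libraries held 38912809, 94856658 and 104189434 UMIs in cows 1, 2 and 3.

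Counts were summed per cow and population (12 sums) and fitted with edgeR 4.0.16 in R 4.3.3 (TMM scaling, filterByExpr, quasi-likelihood test, cow as a block, Benjamini-Hochberg adjustment over the 10290 genes tested besides the 3 of the rule). The block follows from the design, since the sums of a cow share its library. Their deviations from the population mean correlated with a mean r of 0.643 (lowest 0.461). Those of different cows correlated with −0.365, a negative sign that is partly built in, because each mean was taken over the same 3 cows. On simulated data for the comparison with double-negative cells (10292 genes), 63.6% of genes changed by a log2 fold change of 0.5 were found, 100% of those changed by 1 or 2, and 0.0991% of unchanged genes. The changed genes were drawn only from genes with enough expected UMIs in the smallest sum, so the shares found do not cover rare genes. They were not split by gene level either. Depth limits counting error, and the 3 cows limit every other error. Alternatives used DESeq2 1.42.0, other scaling, filters, populations, depth windows and rule limits, no block, and each cow left out. Sums and figures were made in Python 3.11.15 (pandas 2.3.3, matplotlib 3.10.9).

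The members, the gene lists and the markers *COX8B*, *GFRA2* and *CA1* were chosen with earlier results of these data known. Named genes were called in 1 direction in all 3 cows at 0.1 UMIs per 10000 or more in the higher population: the 15 largest increases and 10 largest decreases against double-negative cells, and 8 of each in the other comparisons. Called genes of the lists of VFA transport, VFA use, PPAR, carbonic anhydrases, insulin-like growth factors and GDNF receptors were added, with up to 4 genes of each other list. Further list genes (*DLK2*, *CCL20*, *KRT10*, *COX7A1*, *OXCT1*, *PHGDH*, *IGFBP3*, *IGFBP6*, *ATP1B1*, *HSPB1*, *HSPA8* and *RET*) were named after their values were seen. A few genes that the rule or the lists name are not reported here. Positions and sequences were not used, as the reference table is of another assembly.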

Additional observations from a re-analysis of the deposited data

How the results depend on the processing

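Counts below are genes called higher and then lower in members against double-negative cells, *GJA1*-positive counterparts and *FABP4*-negative counterparts, set beside 1204 and 1007, 473 and 622, and 421 and 288. A log2 fold change beyond 1 left 145 and 292, 145 and 130, and 35 and 63. Without the replicate block for the cow they were 31 and 19, 8 and 11, and 0 and 0; with it, DESeq2 gave 187 lower and no filter 496 lower in the last comparison. Leaving out 1 cow gave 686 to 1192 and 436 to 923, 149 to 307 and 256 to 413, and 28 to 263 and 32 to 180. Cells of 8000 to 16000 UMIs gave 518 and 367, 148 and 221, and 41 and 20, and cells of at least 10000 UMIs 612 and 458 against double-negative cells and 169 and 102 against *FABP4*-negative counterparts. At least 3 *IGFBP5* UMIs gave 290 higher against *GJA1*-positive and 198 and 140 against *FABP4*-negative counterparts, a fit of those populations alone 647 and 512 in the last, and double-negative cells with *FABP4* 150 and 73. The cause of these shifts was not tested. Some settings leave fewer cells or cows, and the part of this in the shifts was not tested either. The share of members was 2.70% with at least 3 *IGFBP5* UMIs and 2.05% with at least 2 *FABP4* UMIs. Leaving out low-count filtering moved the median of all genes against double-negative cells to −0.11. Among cells of 8000 to 16000 UMIs the sign turned for *MXD3* (−1.43), *CDC20* (−1.38), *TOP2A* (−1.59), *RRM2* (−1.12), *CDC6* (−0.14), *MCM3* (−0.53), *MCM6* (−0.0542) and *MKI67* (−1.60) against double-negative cells, and for *MXD3* (−0.10), *CDC20* (−0.20), *TOP2A* (−0.47), *RRM2* (−0.50), *MCM3* (−0.35), *HMGB2* (−0.43) and *MKI67* (−0.29) against *FABP4*-negative counterparts. Against double-negative cells with *FABP4* it turned for *RBP2* (−0.0014), *SLC25A20* (−0.0501) and *S100A12* (−0.0043). Of 110 named genes called against double-negative cells, 82 kept the call in the window, 44 against cells with *FABP4* and 15 without the block. The 15 include *SLC16A1*, *BSG*, *BDH1*, *CYCS* and *SLC14A1*. Genes near 0.1 UMIs per 10000 rest on few molecules per cow, and every p-value rests on 3 cows.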

Other observations

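Summed over the whole list, the 23 genes of VFA transport stood at 23.1, 24.3 and 28.3 UMIs per 10000 in the members of cows 1, 2 and 3, at 9.85, 9.37 and 14.6 in double-negative cells and at 35.2, 33.7 and 40.2 in *GJA1*-positive counterparts. In members and double-negative cells most of this sum came from *BSG* and *SLC16A1*, so it does not describe the list gene by gene. Against double-negative cells 7 of 16 tested genes were higher and 2 lower. The 18 genes of VFA activation, propionate use and ketone bodies found in the table stood at 28.1, 26.2 and 27.4 in members, at 14.4, 15.1 and 19.0 in double-negative cells and at 39.0, 35.2 and 38.2 in *GJA1*-positive counterparts, so the 3 populations did not overlap on either list.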
